A study of Homo sapiens with 8 samples.

Results

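Chromatin accessibility was compared between MCF10A cells given solvent and MCF10A cells given TGFβ1 for 24 h. Peaks of the solvent and 24 h lists that shared at least 1 bp were merged, which gave 119480 regions, of 126658 regions formed by all 4 peak lists of the series. The same merge gave 108052 regions for solvent with 6 h and 118977 regions for solvent with 72 h. MCF10A is an immortalised, non-tumorigenic human mammary epithelial cell line, so all samples come from a single line. The cells were labelled WT and grew, in every group, in medium with horse serum, EGF, hydrocortisone, cholera toxin and insulin. TGFβ1 was given at 5 ng/ml for 6, 24 or 72 h, and the solvent cells, which the labels place at 0 h, received BSA in PBS. Each condition had 2 samples, 8 in all and 4 in this comparison. The authors called 1 peak list per condition on both samples together. No value below therefore has a replicate error, no test was possible, and every difference is a difference between 2 pooled lists. The read depth behind the lists is unknown.

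TGFβ1 binds a pair of receptor kinases that phosphorylate SMAD2 and SMAD3, which join SMAD4 and enter the nucleus. SMAD proteins bind DNA weakly and usually sit beside partner factors, among them AP-1 (dimers of JUN, FOS and ATF proteins), RUNX and TEAD. In mammary epithelial cells the cytokine slows growth and drives epithelial-mesenchymal transition (EMT), in which cells give up junctions and keratins and build a fibronectin- and collagen-rich matrix. ATAC-seq marks the open DNA at promoters and enhancers where such factors bind.

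The value of a region was the area under the peak curve (AUC), a score that the peak caller gives each peak and that grows with both its height and its length, summed per list. The solvent list held 86209 peaks with a median AUC of 725 and the 24 h list 118433 peaks with a median AUC of 808. The change of a region found in both lists was log2(24 h AUC/solvent AUC) minus 0.38, the median of that ratio over shared regions within 3 kb of a transcription start site (TSS). This scale takes a 1.30-fold higher AUC at 24 h as no change. A shared region was called raised or lowered at a scaled change of at least 2-fold, a rule of size and not of significance. Regions found in the 24 h list alone are called gained and those in the solvent list alone lost.

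The promoters of known mammary and basal epithelial marker genes (KRT5, KRT14, KRT17, KRT8, KRT18, TP63, EPCAM, CDH1, CDH3, EGFR, ITGB4 and SFN) carried a peak in both lists for 12 of 12 genes. Of 14 markers of other cell types, 3 had a promoter peak in both lists (CD14, KDR and GFAP), and PTPRC, CD3E, SPI1, PECAM1, CDH5, MYOD1, PDGFRA, SOX10, NEUROD1 and ALB had none in either list. The promoter AUC summed over the epithelial markers was 54781 in solvent and 71275 at 24 h, and over the markers of other cell types 6821 and 7109.

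The sequences around the summits of some of the regions that moved most are shown first. The following windows, from the + strand of GRCh38, reach 100 bases to either side of the strongest summit, with every searched motif in capitals on either strand. The first set is from regions that TGFβ1 raised. TGFBI, UGGT2 and ZFC3H1 (nearest genes) come first by size of change, and POPDC3, DYNC1I2 and PLEKHA7 are shown because they hold the AP-1 motif TGACTCA or its reverse complement TGAGTCA, a choice made after their values were seen.
TGFBI (chr5:136066970-136067170): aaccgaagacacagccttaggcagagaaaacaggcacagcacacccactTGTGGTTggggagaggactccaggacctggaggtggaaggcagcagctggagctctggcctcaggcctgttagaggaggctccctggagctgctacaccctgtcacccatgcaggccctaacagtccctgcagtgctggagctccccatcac
UGGT2 (chr13:95898329-95898529): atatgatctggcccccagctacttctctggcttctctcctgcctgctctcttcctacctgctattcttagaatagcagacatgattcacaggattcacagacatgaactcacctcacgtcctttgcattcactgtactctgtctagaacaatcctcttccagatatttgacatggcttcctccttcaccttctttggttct
ZFC3H1 (chr12:71581305-71581505): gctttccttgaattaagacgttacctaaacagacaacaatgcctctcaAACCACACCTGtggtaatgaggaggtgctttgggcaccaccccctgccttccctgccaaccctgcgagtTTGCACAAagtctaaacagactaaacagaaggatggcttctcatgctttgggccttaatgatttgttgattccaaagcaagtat
POPDC3 (chr6:105174543-105174743): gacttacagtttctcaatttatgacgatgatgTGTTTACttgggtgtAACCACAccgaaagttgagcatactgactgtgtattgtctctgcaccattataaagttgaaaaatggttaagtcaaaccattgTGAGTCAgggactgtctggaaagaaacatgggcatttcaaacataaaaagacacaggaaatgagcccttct
DYNC1I2 (chr2:171652459-171652659): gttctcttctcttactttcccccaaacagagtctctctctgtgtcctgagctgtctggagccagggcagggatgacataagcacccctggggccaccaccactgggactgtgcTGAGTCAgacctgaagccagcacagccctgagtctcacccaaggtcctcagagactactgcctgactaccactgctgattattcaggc
PLEKHA7 (chr11:17012954-17013154): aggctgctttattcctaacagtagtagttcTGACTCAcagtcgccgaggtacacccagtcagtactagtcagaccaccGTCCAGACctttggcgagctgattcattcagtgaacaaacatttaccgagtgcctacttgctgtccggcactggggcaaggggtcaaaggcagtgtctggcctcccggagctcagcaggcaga
The window at TGFBI holds the RUNX motif, that at ZFC3H1 the SNAIL/ZEB E-box, RUNX and C/EBP motifs, and that at PLEKHA7 the AP-1 motif and the SMAD palindrome. None of the searched motifs was found in the UGGT2 window.

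Windows of regions that TGFβ1 lowered or that were lost follow. None of those printed here holds an AP-1 motif, and neither do the TGFBI, UGGT2 and ZFC3H1 windows above, so no contrast can be read from these few sequences.
RALGAPA2 (chr20:20772786-20772986): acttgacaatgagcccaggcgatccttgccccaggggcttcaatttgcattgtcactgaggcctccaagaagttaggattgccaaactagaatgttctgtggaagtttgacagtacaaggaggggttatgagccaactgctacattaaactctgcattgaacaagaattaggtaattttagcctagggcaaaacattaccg
IRX2 (chr5:2780309-2780509): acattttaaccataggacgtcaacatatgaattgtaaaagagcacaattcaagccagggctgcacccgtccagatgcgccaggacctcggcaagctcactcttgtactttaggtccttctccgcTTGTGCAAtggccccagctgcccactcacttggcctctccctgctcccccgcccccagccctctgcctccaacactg
MEIS2 (chr15:36904334-36904534): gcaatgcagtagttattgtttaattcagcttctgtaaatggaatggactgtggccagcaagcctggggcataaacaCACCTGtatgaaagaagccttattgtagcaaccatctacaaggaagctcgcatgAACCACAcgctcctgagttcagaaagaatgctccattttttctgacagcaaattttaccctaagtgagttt
FOS (chr14:75283664-75283864): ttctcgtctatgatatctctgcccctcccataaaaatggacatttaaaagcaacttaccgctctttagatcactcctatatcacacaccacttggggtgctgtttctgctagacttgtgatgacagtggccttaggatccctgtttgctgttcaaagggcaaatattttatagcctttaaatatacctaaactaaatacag
KLF3 (chr4:38385752-38385952): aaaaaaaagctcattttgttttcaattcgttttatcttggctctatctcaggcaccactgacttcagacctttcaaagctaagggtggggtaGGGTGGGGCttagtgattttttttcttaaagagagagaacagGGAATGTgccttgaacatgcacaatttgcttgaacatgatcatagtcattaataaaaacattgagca
The IRX2 window holds the C/EBP motif, the MEIS2 window the SNAIL/ZEB E-box and RUNX motifs, and the KLF3 window the TEAD and KLF/SP motifs. A gained region near HS6ST1 holds a RUNX motif.
HS6ST1 (chr2:129008351-129008551): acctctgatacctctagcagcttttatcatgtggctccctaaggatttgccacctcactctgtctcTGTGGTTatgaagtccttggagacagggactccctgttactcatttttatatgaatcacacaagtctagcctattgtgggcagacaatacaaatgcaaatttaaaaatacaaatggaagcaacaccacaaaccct

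Most shared regions that passed the 2-fold rule after 24 h of TGFβ1 were raised. Of the 119480 regions, 82237 were shared, 35647 (29.8%) were gained and 1596 (1.34%) were lost. The 24 h list was longer (118433 peaks against 86209) and depth is unknown, so no direction is read from gained and lost counts. Among shared regions 6800 (8.27%) were raised and 766 (0.931%) were lowered, so that 89.9% of the changed ones were raised (95% Wilson interval 89.2 to 90.5%, which covers counting error only). With a scale that follows peak strength, after the normalisation the study used on its reads, the counts were 3589 raised and 1577 lowered, and 69.5% of changed regions were raised. When both lists were cut to the 86209 peaks of largest AUC, 11282 regions were gained and 9224 lost, while 6706 shared regions were raised and 303 lowered. Lists of equal length hold gained and lost counts near each other by construction. The cut takes weak peaks from the 24 h list alone, so weak regions that fell can leave the shared class. No direction is therefore read from the counts with equal lists.

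Most gained regions were weak. Their median 24 h AUC was 346 and their median width 227 bp, against a median 24 h AUC of 1219 for shared regions, and 1.80% of gained regions exceeded that median. Gained regions with an AUC of at least 1000 numbered 1288, and lost regions with an AUC of at least 1000 numbered 8. Of the gained regions 60.7% also had a peak in the 6 h list and 79.0% in the 72 h list. Of the lost regions 73.5% still had a peak at 6 h and 19.5% had one at 72 h. The lost regions were thus mostly present at 6 h and mostly absent at 72 h.

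Raised regions were faint in solvent and wider at 24 h, which the rule that called them favours, so their values are a description. Their median AUC was 325 in solvent and 1159 at 24 h, beside 764 and 1219 over all shared regions. Their median summed peak length went from 245 to 464 bp, beside 379 to 470 bp. The median AUC per base of peak went from 1.33 to 2.68, beside 2.07 to 2.67 over all shared regions. Of the raised regions 99.99% also had a peak at 6 h and 99.91% at 72 h, beside 99.80% and 98.0% of all shared regions. Lowered regions had a median AUC of 709 in solvent and 351 at 24 h, and 70.9% of them had a peak at 72 h.

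Distal regions were raised more often than proximal ones. Shared regions within 3 kb of a TSS (proximal, 33300) had a median scaled change of 0.00 by construction, with 4.71% raised and 0.81% lowered. Distal shared regions (48937) had a median of 0.22 (interquartile range −0.05 to 0.59), with 10.7% raised and 1.01% lowered. Of the raised regions 23.1% were proximal (Wilson interval 22.1 to 24.1%), against 40.5% of all shared regions. The 14684 promoter regions, those that reach within 500 bp of the TSS of a protein-coding gene, had a median of −0.07, with 222 raised (1.51%) and 57 lowered (0.388%). Distance followed the same order, with medians of −0.05, 0.14, 0.20 and 0.28 in 4 equal classes of shared regions from the nearest to the farthest. With the strength-following scale the distal median exceeded the proximal one by 0.07.

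Strength in itself moved with the change, and its part in the difference between proximal and distal regions was not tested beyond the following values. In 4 equal classes from the weakest to the strongest mean log2 AUC, the median scaled change was 0.29, 0.28, 0.14 and −0.06. Within each class distal regions lay above proximal ones, with medians of 0.33 against 0.20, 0.32 against 0.19, 0.18 against 0.07 and 0.04 against −0.09. The share raised was 12.1%, 14.4%, 5.85% and 0.73% over the same classes. The median also fell with the GC content of the summit window, with values of 0.26, 0.23, 0.15 and −0.05 from the most AT-rich to the most GC-rich class. By chromosome, the median ranged from 0.04 on chromosome 19 to 0.20 on chromosome 18.

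**Figure D1:**
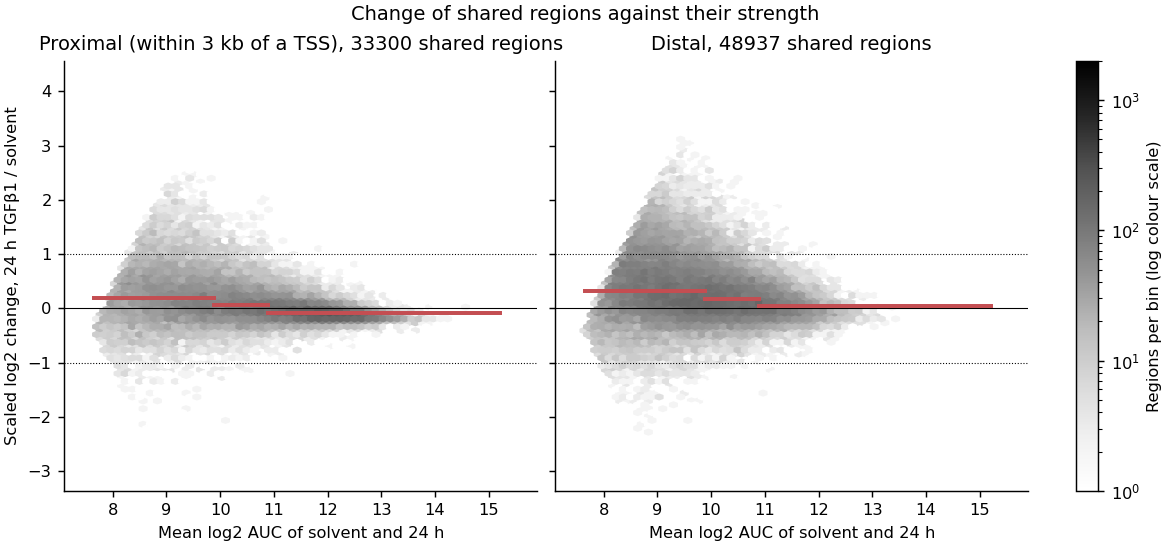
Scaled log2 change of shared regions (y axis) against their mean log2 AUC in the solvent and 24 h lists (x axis), for 33300 proximal and 48937 distal regions; grey shade is the number of regions per bin on a log scale, red lines are medians within 4 equal classes of strength and dotted lines mark 2-fold. The cloud of weak regions reaches far above the upper dotted line and less far below the lower one, and the distal medians, 0.33 to 0.04, lie above the proximal ones, 0.20 to −0.09, in every class.

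The single regions named here are the extremes of each class, with a mean AUC of at least 1000 for shared ones, so their size was fixed by the choice and is given as a description. The largest change lay 38.1 kb past the first TSS of TGFBI, outside annotated genes, at chr5:136063526-136068156. TGFBI encodes a secreted matrix protein named for its induction by TGFβ. Across solvent, 6, 24 and 72 h its AUC was 615, 6483, 12679 and 14387, and the scaled change at 24 h was 3.99 (15.9-fold). All 3 TGFβ1 lists were thus more than 10-fold above solvent before scaling.

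A further 6 raised regions were already high at 6 h. AUCs of the lists are given as deposited, without scaling. In an intron of UGGT2 (a glucosyltransferase that checks protein folding in the endoplasmic reticulum; chr13:95897886-95899143) the AUC was 377, 2819, 4545 and 4744 in solvent, 6 h, 24 h and 72 h, a scaled change at 24 h of 3.21. In an intron of LGR5, an R-spondin receptor, at chr12:71580950-71581819 (nearest coding TSS that of ZFC3H1), the AUC was 335, 3143, 3277 and 2942, a change of 2.91. The region at chr11:20125797-20127313, nearest to the homeobox gene DBX1, had AUCs of 538, 3980, 4973 and 4569 and a change of 2.83. In these regions the 6 h value was already closer to the 24 h value than to solvent. An intron of POPDC3, a membrane protein of the popeye family, held 347, 2338, 2931 and 2832 (2.70). A region 34.9 kb before DYNC1I2, a dynein subunit, held 536, 2769, 4443 and 3999 (2.67). An intron of NEBL, an actin-binding protein of the nebulin family, held 431, 3207, 3547 and 3153 (2.66). None of these regions lay at a promoter.

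The lowered regions named here had their highest unscaled AUC of the 4 lists in solvent, with 1 exception given below. Before RALGAPA2, a GTPase-activating protein for RAL, at chr20:20772460-20773068, the AUC was 2319, 1862, 620 and 239, a scaled change at 24 h of −2.28. The homeobox gene IRX2 had a region at chr5:2780305-2781101 with 1974, 1686, 534 and 322 (−2.26). In an intron of MEIS2, a further homeobox gene, at chr15:36903898-36904538, the values were 1981, 1454, 614 and 419 (−2.07). These regions were lower still at 72 h. The same held for an intron of GPR161 with 1759, 1193, 570 and 223 (−2.00) and for a region nearest to KIF4B with 1717, 1632, 621 and no peak at 72 h (−1.84).

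Other lowered regions had a higher unscaled AUC at 72 h than at 24 h. The region before FBXL16 had 1881, 1585, 586 and 683 (−2.06). A wide region in an intron of MROH1, nearest to SCX, which encodes the tendon factor scleraxis, had 3458, 2765, 1195 and 5146 (−1.91). In the SCX region the 72 h value was also above solvent.

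Gained regions of largest AUC had appeared by 6 h. An intron of SHISAL2A (chr1:52636519-52637740) had no peak in solvent and AUCs of 4219, 5646 and 4748 at 6, 24 and 72 h. The region printed above for HS6ST1, a heparan sulfate sulfotransferase, lay 690 kb before that gene (chr2:129007863-129009014) and had 2839, 5159 and 4855. A second TGFBI region, at chr5:136073157-136076057, had 2297, 4639 and 9564. Its 72 h peak also covers the next region, so the last value belongs to both. An intron of RGS3, a regulator of G-protein signalling, had 2583, 3862 and 4136 and held a SMAD palindrome. An exon of ZSWIM4 had 3245, 3754 and 3624, and a region nearest to MLLT3 had 2352, 3634 and 3043.

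The lost regions are named by their nearest coding TSS, which can be far away. The strongest, at chr14:75282601-75284452 and 4.94 kb past the first TSS of FOS, had an AUC of 2158 in solvent and 2951 at 6 h and no peak at 24 or 72 h. FOS encodes an AP-1 subunit induced by EGF and serum. In an intergenic region 146 kb past TRIB1, a pseudokinase gene, the values were 1413 and 1109 with no later peak. A region 139 kb past DUSP6, in an intron of LINC02458, had 1021 and 617 with no later peak. EVA1C had 1165 and 371 in the same pattern. The region nearest to MAT2A, in an exon of GGCX, had 1725, 948, no peak and 387. In an intergenic region 278 kb before KLF3, a zinc-finger repressor gene, the values were 1349, 1260, no peak and 281. Near ZBTB37, in an intron of GAS5, they were 1143, 855, no peak and 758, and in an intron of RPS6KA2 they were 1127, 1085, no peak and 246. A peak was thus called again at 72 h in 4 of these 8 lost regions, the strongest ones, beside 19.5% of all lost regions.

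Promoters with a raised peak included those of matrix and adhesion genes. At the FN1 promoter (fibronectin; chr2:215435616-215436866) the AUC in the same order was 882, 2782, 3957 and 4268, a scaled change of 1.79. At FBN1 (fibrillin, the core of microfibrils; chr15:48644658-48646277) it was 579, 1528, 2717 and 2588 (1.85). The 250 bases before the RefSeq start of both genes are printed below (GRCh38.p14, − strand), with CLDN7 as the lowered counterpart.
FN1 (chr2:215436069-215436318): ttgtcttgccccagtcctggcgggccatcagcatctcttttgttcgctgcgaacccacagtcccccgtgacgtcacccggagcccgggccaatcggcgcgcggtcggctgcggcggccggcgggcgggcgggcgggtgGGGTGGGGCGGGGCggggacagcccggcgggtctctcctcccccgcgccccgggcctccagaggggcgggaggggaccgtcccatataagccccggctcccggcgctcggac
FBN1 (chr15:48644971-48645220): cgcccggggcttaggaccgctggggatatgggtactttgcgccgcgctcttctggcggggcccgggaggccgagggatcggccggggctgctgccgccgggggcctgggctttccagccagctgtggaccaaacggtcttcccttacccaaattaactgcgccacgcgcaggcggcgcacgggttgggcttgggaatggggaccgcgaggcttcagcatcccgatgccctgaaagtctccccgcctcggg
CLDN7 (chr17:7263214-7263463): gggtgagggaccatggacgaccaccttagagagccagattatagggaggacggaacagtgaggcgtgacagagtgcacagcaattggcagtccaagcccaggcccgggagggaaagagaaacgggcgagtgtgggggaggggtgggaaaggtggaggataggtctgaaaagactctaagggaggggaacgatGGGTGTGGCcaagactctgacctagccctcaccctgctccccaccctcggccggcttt
In FN1 the capitals mark overlapping KLF/SP motifs and in CLDN7 1 such motif, and FBN1 holds none of the searched motifs in this window. Neither FN1 nor FBN1 holds the AP-1 motif there. The FBN1 and CLDN7 windows lie inside the raised and the lowered region but do not reach their summits, at chr15:48645702 and chr17:7262695. They therefore do not describe the sequence at those summits. The FBN1 summit lay 7 bp past its nearest GENCODE start, and the printed FBN1 window lies farther into the gene. That window is therefore not the sequence before the start nearest to the summit.

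The other promoters at the top of the ranking were P2RY6, a nucleotide receptor, with 819 in solvent and 4375 at 24 h (2.04, with an AP-1 motif at the summit), and INPP4B, a phosphoinositide phosphatase, with 813 and 4278 (2.02). PCDHGC5, a protocadherin, had 789 and 3985 (1.96), and PDZK1, a scaffold protein, 595 and 2830 (1.87). PLEKHA7, an adherens junction protein, had 712 and 3081 (1.74), and ITGB4, the hemidesmosome integrin, 851 and 3587 (1.70). The ITGB4 value rested on a wider peak, since its AUC per base changed by −0.18 on the log2 scale. The peaks of 4 of the 8 genes lay at an internal start site, with summits 24.5 kb past the first TSS in P2RY6, 373 kb in INPP4B, 16.8 kb in PDZK1 and 34.5 kb in ITGB4.

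Lowered promoters were led by SPNS2, a sphingosine-1-phosphate transporter, with 1956, 1321, 718 and 756 over solvent, 6, 24 and 72 h (−1.82). CHI3L1, a secreted glycoprotein, had 2436, 2293, 940 and 389 (−1.75). TLR9, an innate immune receptor, had 2416 and 1013 in solvent and at 24 h (−1.63). ARHGAP32 had 1625 and 850 (−1.31). The tight junction gene CLDN7 had 1879, 1904, 1001 and 547 at chr17:7262365-7263616 (−1.29), with a SNAIL/ZEB E-box and an ETS motif at the summit. VWCE followed with 1427 and 765 (−1.28), ARHGEF2 with 1525 and 822 (−1.27; 9409 at 6 h and 1399 at 72 h) and IGSF9 with 1386 and 766 (−1.23). A 6 h peak that reaches past a region was counted whole, so the 6 h value of ARHGEF2 may include neighbouring sequence. For ARHGAP32 the AUC per base changed by 0.29, in the opposite direction, because its peak became shorter. In CHI3L1, CLDN7, ARHGAP32 (389), VWCE (373) and IGSF9 (725) the unscaled 72 h value was the lowest of the 4 lists. In SPNS2, TLR9 (1268) and ARHGEF2 it was above the 24 h value. The peaks of SPNS2, ARHGAP32, VWCE and ARHGEF2 lay at internal start sites. Their summits were 35.3, 255, 22.1 and 27.3 kb past the first TSS.

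The gene-level value summed the AUC of all regions within 100 kb whose nearest protein-coding TSS belonged to the gene, with an absent peak as 0. Of the genes with at least 5 such regions and a peak in both lists, 7075, the median scaled change was 0.21 (interquartile range 0.05 to 0.45). Gained regions counted toward the 5 that a gene needs, so raised shares here and below follow in part from the rule. Raised by at least 1.5-fold were 1188 genes (16.8%), and lowered were 3 genes (0.0424%). These counts lean on peak length and on the longer 24 h list: with AUC per base 18 genes were raised and 51 lowered, and with lists of equal length 499 and 22.

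The highest values belonged to genes that were nearly closed in solvent. FRMPD4, a synaptic scaffold gene, had 1 of 11 regions in solvent with an AUC of 293, and all 11 at 24 h with 6244 (4.03). GPR143, BARX1, KCNU1 and HS3ST2 followed with changes of 3.55, 3.31, 3.16 and 3.13, and IFI44, ADCYAP1R1, MYOM2, KCNE2 and ARMC3 with 3.01 to 2.73. Each of these had 1 or 2 regions with a solvent peak. With AUC per base the values of ADCYAP1R1 (−0.27) and MYOM2 (−0.010) lay below 0. They include genes of neurons (FRMPD4, ADCYAP1R1), striated muscle (MYOM2), craniofacial mesenchyme (BARX1) and the interferon response (IFI44).

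Among the 5094 genes with a solvent AUC of at least 5000, a limit set after the values were seen, TGFBI was highest. Its 33 regions summed to 34565 in solvent and 109681 at 24 h (1.29), and their peak length went from 13255 to 45702 bp. The AUC per base of TGFBI fell by 0.38 on the log2 scale, so the gene was covered by more and longer peaks rather than by higher ones on average. TSPAN2, a tetraspanin, had 7525 and 23276 (1.25), PLCE1, a phospholipase C, 5846 and 17633 (1.22), and the fibrillar collagen gene COL5A1 7435 and 21034 (1.12). ABCA13, PTPRB, SGIP1, VPS53, HECW1 and PRR5L lay between 1.19 and 1.12.

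The 3 lowered genes were RCC1, the exchange factor for the GTPase RAN, with 18253 and 14728 (−0.69), VWCE with 7742 and 6473 (−0.64) and SPNS2 with 5595 and 4739 (−0.62). RCC1 owed its value to an intron region that went from 8444 to 4882 (−1.17) and stood at 7265 at 6 h and 7339 at 72 h. VWCE had a higher AUC per base at 24 h than in solvent (0.12). Just outside the limit were VGF (−0.57), CSF3R (−0.56), FRMD8 (−0.55), RPS12 (−0.55) and SCX (−0.53), then GABRR2 (−0.50) and PDYN (−0.48). At FRMD8, with 21 regions and 54509 falling to 48245 before scaling, 2 regions were lowered (−2.20 and −1.35) and both lay in the exon of NEAT1, the long non-coding RNA that builds paraspeckles. Both returned by 72 h, from 229 and 564 at 24 h to 885 and 1148.

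The genes of the TGFβ pathway itself stayed near the median of all genes. Of 14 ligands, latent binding proteins, receptors and SMADs, 10 could be ranked and 0 were raised or lowered, with a median of 0.22 beside 0.21 for all genes. Over all ranked genes 16.8% were raised and 0.0424% lowered, so 0 lowered in this list or those below is not read as a result. LTBP1, which anchors latent TGFβ in the matrix, had 29148 and 56544 (0.58), the type I receptor gene TGFBR1 6574 and 12292 (0.53) and the ligand gene TGFB2 13600 and 22475 (0.35). At the low end were the type II receptor gene TGFBR2 (0.01), LTBP3 (−0.03) and the co-receptor gene TGFBR3 (−0.15). All 14 promoters of this list had a peak in both lists, with 0 raised and 0 lowered and a median of −0.01.

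Feedback genes and direct SMAD targets had 2 raised of 16 ranked, beside 16.8% of all ranked genes, and a median of 0.26. LDLRAD4, which removes SMAD2 and SMAD3 from the receptor, went from 2284 to 12639 (2.09, 4.26-fold with absent peaks as 0). Of its 15 regions 9 were gained and 3 raised, and 10 of these lay in introns 208 to 350 kb past the first TSS. The raised region of largest change had 237 in solvent and 1549, 1701 and 1517 at 6, 24 and 72 h (2.46). No LDLRAD4 promoter peak was called in solvent, and at 24 h the promoter peaks summed to 1247. TGFBI was described above. PMEPA1, which also withholds SMADs from the receptor, had 25858 and 49144 (0.55) with 3 raised and 4 gained regions of 20. SMAD7, the inhibitory SMAD, had 32479 and 55542 (0.40) with 2 raised and 9 gained of 32. The BMP targets ID3 (0.10) and ID1 (−0.10) and the co-repressor gene TGIF1 (0.00) were lowest.

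Genes of mesenchymal adhesion and matrix had the highest share of raised members, a description of a list chosen with earlier results of these data known. Of 24 genes 19 could be ranked, and 10 of these (52.6%) were raised and 0 lowered, beside 16.8% and 0.0424% of all ranked genes, with a median of 0.60. Peak length bears on this: with AUC per base the median was 0.14, beside −0.07 for all genes. The raised genes were POSTN (periostin, 1.35), CDH11 (cadherin 11, 1.33), COL1A2 (1.29), COL5A1 (1.12), FN1 (1.05), FBN1 (1.01), COL5A2 (0.98), CDH2 (N-cadherin, 0.89), COL6A3 (0.61) and TNC (tenascin C, 0.60). Lowest were the gelatinase gene MMP2 (0.23), THBS1 (thrombospondin, 0.17) and the basement membrane collagen gene COL4A1 (0.14).

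The raised and gained regions of these genes lay mostly away from promoters. So did such regions in general, with 3.26% of all raised and 3.07% of all gained regions at promoters. CDH11, COL1A2, COL5A1, COL5A2, COL6A3 and POSTN had no promoter peak in either list. In FN1, with 11 regions, 3 were raised and 3 gained, and a region 5.64 kb before the TSS (chr2:215441354-215442256) had 203, 1324, 1520 and 1697 over the 4 lists (2.53). FBN1 had 6 raised and 2 gained regions of 11, and the highest, 49.7 kb before the TSS, went from 254 to 1112, 1914 and 2143 (2.54). COL5A1 had 2 raised and 8 gained of 16, and the highest, 89.6 kb before the TSS and with an AP-1 motif, went from 245 to 1082, 1774 and 1932 (2.48). For CDH2, whose promoter changed by 0.16, a pair of intron regions 62.7 and 63.3 kb past the TSS were raised (1.99 and 1.45), both with an AP-1 motif. In COL1A2 3 regions were raised and 5 gained of 11.

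EMT transcription factors had 2 raised of 10 ranked genes (16.8% of all ranked genes), no lowered ones and a median of 0.48. PRRX1, a homeobox factor of mesenchyme, had 3264 and 9179 (1.11) with 6 gained regions of 10 and no promoter peak. With a solvent peak in 4 regions, PRRX1 could be ranked only through gained ones. SNAI2 (SLUG) had 9345 and 20472 (0.75) with 7 gained and 1 raised region of 17. With AUC per base, PRRX1 (−0.03) and SNAI2 (−0.12) lay below 0. TCF4 had 0.54, SNAI1 (SNAIL) 0.50 and ZEB1 0.41, while HMGA2 (0.21), SOX4 (0.21) and ZEB2 (0.10) were lowest. Their promoters differed less. SNAI1 had 1474 and 1932 (0.01), SNAI2 4104 and 6127 (0.20) and ZEB1 4654 and 5622 (−0.11). Raised regions lay farther out, for SNAI1 47.2 kb past the TSS with 831, 3085, 3212 and 2725 (1.57, AP-1 motif and SMAD palindrome) and for ZEB1 76.1 kb before it with 442, 1381, 2380 and 2277 (2.05, AP-1 motif).

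AP-1 genes had 0 raised and 0 lowered of 8 ranked, beside 16.8% and 0.0424% of all ranked genes. Their median was −0.00. BATF3 (0.38), MAFK (0.32) and ATF3 (0.23) were highest. JUNB had 17474 and 22149 (−0.04), JUN 32978 and 41374 (−0.05), JUND 14635 and 16234 (−0.23) and FOS 46078 and 45588 (−0.39). All 11 promoters of the list had a change below 0, with a median of −0.21, beside 65.9% and −0.07 over all promoter regions. Their median AUC in solvent was 8722, and proximal regions of the strongest class had a median change of −0.09. Nothing particular to AP-1 genes is read from this count. At FOS, 2 regions were lost, 1 lowered (−1.10, 20.4 kb past the TSS) and 1 raised, 44.1 kb before the TSS, from 214 to 715, 939 and 948 (1.76, with an AP-1 motif). JUN likewise had 1 raised region (270, 877, 1167 and 1702, 1.73) and 1 lowered (1089, 1060, 483 and 423, −1.55), 21.1 and 30.9 kb past the TSS.

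RUNX and TEAD/YAP genes had 1 raised of 9 ranked (RUNX3), beside 16.8% of all ranked genes, and a median of 0.13. RUNX3 had 5953 and 16607 (1.10) with 7 gained and 3 raised regions of 17, of which 7 of the 10 held an AP-1 motif. RUNX2 had 0.47 and RUNX1, the gene with most regions of the list, 0.36. TEAD4 (0.07), TEAD1 (0.02) and the co-activator gene YAP1 (−0.04) were lowest. The promoter of TEAD2, a gene with too few regions to be ranked, was raised from 509 to 1629 (1.30).

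Integrin and actin genes had medians close to that of all genes. Of 13 integrin genes 2 were raised, beside 16.8% of all ranked genes, with a median of 0.25. ITGB3 had 6374 and 13609 (0.72) and ITGA5, the fibronectin receptor subunit, 12612 and 25201 (0.62). ITGA11 had 0.57, and ITGA2 (0.13), ITGA3 (−0.06) and ITGB8 (−0.10) were lowest. Among actin and contractility genes 1 of 11 ranked was raised, beside the same 16.8%, with a median of 0.21. It was PALLD (palladin, 32407 and 67869, 0.69). TPM1 (0.48) and ACTN1 (0.37) followed, and ZYX (0.12) and VCL (0.03) were lowest. The promoter of TAGLN, a smooth muscle actin-binding protein, was raised from 1135 to 3145 (1.09), and that of MYL9 had a peak at 24 h (408) but not in solvent.

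Epithelial junction genes had 0 raised and 0 lowered of 18 ranked, beside 16.8% and 0.0424% of all ranked genes. Their median was 0.09, and 3 of the 18 lay above the median of all genes, 0.21. TJP1 (ZO-1) had 24321 and 45794 (0.54), CDH3 (P-cadherin) 21366 and 34965 (0.33) and EPCAM 12410 and 18719 (0.22). CDH1 (E-cadherin) had 11446 and 15974 (0.10), and its 10 regions ran from −0.23 to 0.57 with 1 gained. OCLN (occludin) had 8956 and 11161 (−0.06), TJP3 2789 and 3204 (−0.18) and CLDN7 5049 and 5686 (−0.21). Of the promoters with a peak in both lists 20 of 22 lay below 0, with a median of −0.17. Of the housekeeping promoters 11 of 12 also lay below 0, with a median of −0.13, and so did 65.9% of all promoter regions, with a median of −0.07 against 0.21 over all ranked genes. Nothing particular to a list is read from such counts here or below. MARVELD3, a tight junction protein, had the only lowered value when all promoter peaks of a gene were summed (997 and 599, −1.11). CLDN7, with 1 further promoter peak beside the lowered one, had 3648 and 3155 (−0.59), and the CDH1 promoter had 1414, 1943, 1655 and 1233 (−0.15).

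Epithelial transcription and splicing factors gave nearly the same picture, with 0 raised and 0 lowered of 16 ranked and a median of 0.05. Over all ranked genes 16.8% were raised and 0.0424% lowered. ELF5, a mammary luminal factor, had 0.50, RBM47 0.31 and TP63 (the basal factor p63) 0.21. ELF3 (−0.14), CEBPA (−0.14) and the splicing factor gene ESRP1 (−0.19) were lowest. OVOL2, an epithelial repressor with 4 regions and so not ranked, had the lowest value of the list, 2222 and 1698 (−0.76), and is named after its value was seen. Of 17 promoters 13 lay below 0, beside 65.9% of all promoter regions.

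Among keratin genes, members of the intermediate filament family of epithelia, there was 1 raised of 8 ranked and a median of 0.12. The share raised over all ranked genes was 16.8%. KRT14, the basal keratin partner of KRT5, had 2652 and 9032 (1.39), and all 6 of its regions were raised or gained. With a solvent peak in 3 of the 6, KRT14 could be ranked only through gained regions. Its promoter had 357, 1196, 1479 and 1242 over the 4 lists (1.67), and none of its 6 summit windows held an AP-1 motif. KRT5 had 11573 and 13600 (−0.14) and KRT8 18802 and 23359 (−0.06), and their promoters had −0.28 and −0.19. The KRT23 promoter was lowered, from 525 to 288 with no peak at 72 h (−1.25). KRT17, next to KRT14 on chromosome 17, had a promoter change of 0.71.

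Cell cycle and cytostatic genes had 1 raised of 11 ranked (CCND2), beside 16.8% of all ranked genes, and a median of 0.14. CCND2, cyclin D2, had 2129 and 4751 (0.78, and −0.03 with AUC per base), of which a single region 53.7 kb before the TSS went from 291 to 1094, 2251 and 2243 (2.57, with an AP-1 motif). CCND2 had a solvent peak in 4 of its 5 regions and could be ranked only through a gained one. GADD45B (0.48) and the inhibitor gene CDKN1C (0.33) followed. MYC, which TGFβ represses in epithelial cells, had 49206 and 55944 (−0.19), and E2F2 had −0.22 with a lowered promoter (1212 and 765, −1.04). The E2F2 promoter had 1530 at 6 h and 1330 at 72 h, both above solvent before scaling. EGFR and ERK feedback genes had 0 raised and 0 lowered of 16, beside 16.8% and 0.0424% of all ranked genes. Their median was 0.03, and all 16 promoters lay below 0, beside 65.9% of all promoter regions. BTC (0.33), DUSP4 (0.31) and SPRED2 (0.10) were highest, and the phosphatase gene DUSP1 (−0.18), the ligand gene EREG (−0.19) and DUSP6 (−0.22) lowest.

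Housekeeping genes (6 ranked, 1 raised, GUSB at 0.60) had a median of 0.06 with GAPDH at −0.23, markers of other cell types (9 ranked, 0 raised) 0.20, and mammary and basal markers (10 ranked, 1 raised) 0.17. Of all ranked genes 16.8% were raised. The zero point of all these values rests on the scale. With the median over all shared regions as the scale, every scaled value would be 0.12 lower, and the medians of the junction list (−0.03), the epithelial factor list (−0.07), the AP-1 list (−0.12), the EGFR/ERK list (−0.10) and the housekeeping list (−0.06) would lie below 0. The median over all genes, 0.21, becomes 0.09 on that scale.

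The other time points, which share the solvent list with this comparison, are given side by side without a comparison. The mesenchymal list had medians of 0.39, 0.60 and 0.63 at 6, 24 and 72 h, with 0.13, 0.21 and 0.25 for all genes. EMT transcription factors had 0.37, 0.48 and 0.47, junction genes 0.08, 0.09 and 0.02, and AP-1 genes 0.01, −0.00 and 0.01. For single genes, FN1 had 0.65, 1.05 and 1.53, TGFBI 0.66, 1.29 and 1.55, CDH2 0.47, 0.89 and 1.15, and CLDN7 0.01, −0.21 and −0.56. LDLRAD4 had 1.48, 2.09 and 2.08 and FOS −0.09, −0.39 and −0.52.

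Windows of 250 kb gave values without any gene assignment. The 5355 windows with at least 10 regions had a median of 0.22 and ran from −0.34 to 3.66. The highest held SHH, the Hedgehog ligand gene, at chr7:156000001-156250000, where the AUC went from 374 to 6129 and 10 of 11 regions were gained. Gained regions counted toward the 10 that a window needs, so such a value follows in part from the rule. Windows with NOCT and SLC7A11 (2.68), FBXW7 (2.37), ANO4 (2.21) and PDZRN3 (2.15) followed. The lowest windows held GRAMD2B (−0.34) and the AP-1 genes BATF, FOS and JDP2 together (chr14:75250001-75500000, 52627 and 54463, −0.33). Windows with OXR1 and ZFPM2, with ANKS1B and GARIN6 and with GRHL1 and TAF1B had −0.29 each.

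Sequence motifs differed between the classes of region, none of which was defined by sequence. Both strands were searched for motifs within 100 bp of the strongest summit. Among distal regions the AP-1 motif (TGACTCA or TGAGTCA) was found in 47.4% of 5230 raised regions (Wilson interval 46.1 to 48.8%), 38.2% of gained, 37.2% of other shared, 10.9% of 496 lowered (8.44 to 13.9%) and 9.74% of 1047 lost regions. It was found in 4.95% of 35116 RefSeq promoters of 300 bases. The raised share was 46.8 to 48.1% with the equal-length lists, the AUC minimum of 400 and both other scales, and 55.6% when the whole region was searched. The share of lost regions was less firm, at 19.6% with lists of equal length and 37.3% when peaks had to overlap by 50% to be merged.

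The AP-1 difference varied with strength. In the weakest of 4 equal classes of shared distal regions 48.4% of raised regions held the motif, against 28.4% of other shared and 12.1% of lowered ones. In the strongest class, with 112 raised regions, the shares were 44.6% and 43.7%, within each other's interval. A difference between raised and other shared regions was thus not detectable among the strongest regions at these counts.

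The SNAIL/ZEB E-box (CACCTG) was commoner in lowered and lost regions. It was found in 12.7% of raised, 14.9% of gained, 19.8% of other shared, 32.9% of lowered and 27.7% of lost distal regions. SNAIL and ZEB proteins are repressors that bind it, but so do other E-box factors. The C/EBP motif (TTGCGCAA, TTATGCAA, TTACGCAA or TTGTGCAA) was also commoner among lowered (8.87%) and lost regions (11.7%) than among raised ones (1.57%), with 4.14% of other shared regions.

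RUNX (TGTGGTT or TGCGGTT) and TEAD (ACATTCC or GCATTCC) motifs leaned the same way as AP-1 by smaller margins. RUNX was found in 9.83% of raised, 7.42% of other shared and 5.44% of lowered regions, and TEAD in 11.2%, 9.07% and 5.24%. The SMAD palindrome (GTCTAGAC or GTCTGGAC), the site that SMAD3 and SMAD4 can bind on their own, was in 1.59% of raised and 0.80% of other shared regions. The GC-rich SMAD element (GGCGCC) leaned the other way, with 1.30% of raised and 3.17% of other shared regions. CTCF, the insulator factor, had its motif in 0.44% of raised, 2.21% of gained and 4.37% of other shared regions. These motifs occur in 5.87% (RUNX), 6.64% (TEAD), 0.95% (SMAD palindrome), 19.2% (SMAD GC element), 20.6% (E-box), 1.92% (C/EBP) and 0.47% (CTCF) of RefSeq promoters. A motif match is a description of the sequence and not evidence of binding.

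The AP-1 share also varied between the genes. Over all regions within 100 kb of a gene 29.7% held the motif, and over raised or gained ones 36.5%. For the mesenchymal list the shares were 30.5% of 285 regions and 30.6% of the 134 raised or gained ones. They were 34.4% and 40.0% for EMT transcription factors, 35.7% and 36.8% for epithelial junction genes and 34.1% and 41.3% for EGFR/ERK genes. Single genes ranged from 0 of 6 raised or gained regions in KRT14 and 1 of 6 in FN1 to 5 of 10 in COL5A1, 7 of 10 in RUNX3 and 3 of 3 in ZEB1.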

How the data were processed

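ATAC-seq, which cuts open chromatin with a transposase, was carried out by the authors on 8 samples of MCF10A, 2 for each of solvent and 6, 24 and 72 h of TGFβ1. Per the submitters' processing notes, reads were handled with Trimmomatic 0.38, Bowtie2 2.4.5, Picard, SAMtools 1.4.1 and Genrich 0.5 on GRCh38. Duplicates, mitochondrial reads, low-quality alignments and blacklisted regions were removed. The authors called peaks on both samples of a condition together and kept those with an AUC above 200. The deposited AUC of a peak is a score, not scaled between lists, and the deposited −log10 q value belongs to its summit. The labels place solvent at 0 h, but the study also describes it as 72 h of solvent. The lists hold no reads, so the depth of each sample and its precision are unknown. The authors' own test used reads per sample, which were not analysed here.

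Peaks were merged, summed, scaled and assigned with pandas 2.3.3, numpy 2.4.6, pysam 0.24.0 and scipy 1.17.1 under Python 3.11.15, with start sites and features from GENCODE 44 and promoter sequences from RefSeq (GRCh38.p14, cut to the bases before the start). All 239 genes of the lists were found in the annotation. The summing and scaling were tested on simulated data. With 1 pooled list per condition no test was made, and calls are by size. A 6 h or 72 h peak that spans several regions was counted whole in each. The gene lists and the members were chosen with earlier results of these data known.

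Regions named are the 8 highest and 8 lowest shared regions with a geometric mean AUC of at least 1000, the 8 gained and 8 lost ones of largest AUC, and 8 promoters in each direction. Genes named are the 10 highest and lowest, the 3 highest and lowest of each list and FN1, CDH2, CDH1, EPCAM, SNAI1, SNAI2, ZEB1, JUNB and JUN. Loci and further list members described in detail, the genes with a solvent AUC of at least 5000, the motif shares by strength and the sequences chosen for an AP-1 motif were added after the values were seen. Items withheld here, 4 of the named regions among them, are not reported. Alternatives were lists of equal length, an AUC of at least 400, an overlap of 50%, a scale over all shared regions or one that follows strength in 50 bins, AUC per base, the largest −log10 q, proximal within 1 kb, any gene's TSS, no distance limit and motifs in the whole region.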

Additional observations from a re-analysis of the deposited data

How the results depend on the processing

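No paired analysis was possible because the peak lists pool both replicates of a condition, and for the same reason no value without a replicate exists. Depth is unknown, and most gained regions were weak (median AUC 346). The AUC sums height over length, and the scale rests on proximal regions. Among the values that answer a comparison, 25 stayed close to the main value under an alternative and 44 moved. For single genes and regions 355 stayed, 177 moved and 10 reversed. The cause of these shifts was not tested.

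With lists of equal length 11282 regions were gained, 9224 lost and 303 shared regions lowered, 499 genes were raised and 22 lowered, the junction median was 0.033 and the AP-1 share was 42.5% of gained and 19.6% of lost distal regions. With an AUC of at least 400, 946 regions were lost, 2589 raised and 318 lowered, 1 gene was lowered, the junction median was 0.16 and the AP-1 share was 39.8% of gained and 13.0% of lost regions. With an overlap of 50%, 9962 regions were lost and the AP-1 share was 39.1% of gained and 37.3% of lost regions.

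With the strength-following scale 3589 regions were raised and 1577 lowered, the distal median exceeded the proximal one by 0.074, 724 genes were raised and 13 lowered, the junction median was 0.050 and AP-1 was in 14.3% of lowered regions. With the scale over all shared regions 5218 regions were raised and 1081 lowered (82.8% raised), 10 genes were lowered and the junction median was −0.033.

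With AUC per base 2052 regions were raised and 396 lowered, the distal excess was 0.11, 18 genes were raised and 51 lowered, and the medians were 0.14 for the mesenchymal list and −0.054 for junctions. On that measure SNAI2 (−0.12), TGFBI (−0.38), PRRX1 (−0.025), CCND2 (−0.027), ADCYAP1R1 (−0.27), MYOM2 (−0.010), VWCE (0.12), the ITGB4 promoter (−0.18) and the ARHGAP32 promoter (0.29) had the opposite sign. With the largest −log10 q, which is nearly flat between lists, 62 regions were raised and 0 lowered, the distal excess was 0.093 and the ITGB4 promoter had −0.011. With the nearest TSS of any gene 1853 genes were raised and 11 lowered, and the junction median was 0.14. With the whole region searched AP-1 was in 55.6% of raised, 16.7% of lowered, 40.6% of gained and 12.2% of lost distal regions.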
